A study of Mus musculus with 2 samples.

Results

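The miRNAs described here are the dominant arms, meaning the hairpin strand usually the more abundant, of 2 clusters of related miRNAs in mouse macrophages. They are 6 arms of the Mir17hg cluster, the host transcript of miR-17 to miR-92a, and 3 arms of its paralog within the gene Mcm7, miR-106b to miR-25. They were chosen by name from the annotated clusters and not by their counts, and make up 9 of the 1915 mature miRNA names counted. All 9 had at least 10 counts in every library.

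Small RNA libraries were sequenced from bone marrow-derived macrophages (BMDMs) of wild type C57/BL6 mice aged 8 weeks. The macrophages were unstimulated, and the 2 libraries are biological replicates 1 and 2 of this single condition. No label states that the replicates came from separate animals, so the spread between them may be partly technical. BMDMs are primary cells grown out of marrow in L-cell conditioned medium, so they carry the effects of culture. The study's other library of this kind was not analysed here. Replicate 1 held 7322969 counts and replicate 2 held 8094314.

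A miRNA guides a silencing complex to messenger RNAs mainly through its seed, a short stretch near the 5′ end, so miRNAs with the same seed share many targets. The Mir17hg cluster is transcribed as a single precursor and is known for promoting proliferation and survival of blood cells and for its overexpression in lymphomas. The Mcm7 cluster lies within a gene for a DNA replication helicase subunit, and a further paralog, on the X chromosome, runs from miR-106a to miR-363.

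The mature sequences are shown because the seed groups and the near-identical members organise all the comparisons. They are those of RefSeq for GRCm38.p6, which matched 9 of 9 members and 1623 of the 1915 names, and run 5′ to 3′ with the seed, bases 2 to 8, in capitals. The miR-17 seed group has 4 members, from both clusters:
mmu-miR-17-5p: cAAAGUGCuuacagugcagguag
mmu-miR-20a-5p: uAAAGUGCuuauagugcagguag
mmu-miR-106b-5p: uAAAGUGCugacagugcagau
mmu-miR-93-5p: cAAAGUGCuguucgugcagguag
The miR-18 seed group has 1 member:
mmu-miR-18a-5p: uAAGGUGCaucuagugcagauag
The miR-19 seed group has 2 members, both from the Mir17hg cluster:
mmu-miR-19a-3p: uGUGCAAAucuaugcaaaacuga
mmu-miR-19b-3p: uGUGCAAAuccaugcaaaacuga
The miR-92 seed group has 2 members, 1 from each cluster:
mmu-miR-92a-3p: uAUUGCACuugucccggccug
mmu-miR-25-3p: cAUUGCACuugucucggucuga

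Positions in the following substitutions are counted from 1 at the 5′ end. From miR-19a-3p to miR-19b-3p the only substitution is U11C. From miR-17-5p to miR-20a-5p the substitutions are C1U and C12U, and to miR-93-5p they are U10G, A11U, C12U and A13C. From miR-92a-3p to miR-25-3p they are U1C, C14U and C18U. Sequences this close can exchange reads during mapping, and how reads that match several stem-loops were treated is not given in the sources used here, so levels of near-identical members are uncertain to that extent.

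In GRCm38 the 6 hairpins of the Mir17hg cluster span 836 bases at chr14:115043671-115044506 on the plus strand, inside an exon of the 1 annotated Mir17hg transcript that covers them. The 3 hairpins of the Mcm7 cluster span 498 bases at chr5:138165321-138165818 on the minus strand. The Mir106b hairpin is in an intron of both Mcm7 transcripts that cover it, while Mir93 and Mir25 are each in an intron of 2 transcripts and in an exon of 1. The X-linked cluster spans 875 bases at chrX:52741693-52742567, minus strand. It includes further hairpins for miR-19b and miR-92a whose mature 3p sequences are the same as those of the Mir17hg cluster, so counts of miR-19b-3p and miR-92a-3p cannot be assigned to a locus.

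The labelled cell type was compared with marker miRNAs, as RpM, the count divided by the library total and multiplied by 1000000. All 7 macrophage and myeloid markers were counted in both libraries, with a summed level of 356986 RpM in replicate 1 and 354503 RpM in replicate 2. miR-21a-5p, the most abundant miRNA of the table, gave 279747 and 257096 RpM of these. The nearly equal sums came with changes in both directions. miR-146a-5p was higher in replicate 2, at 27603 and 59649 RpM. The other 6 were lower there by totals, among them miR-223-3p at 6053 and 4485 RpM, miR-142a-3p at 6009 and 3626 RpM and miR-155-5p at 99.0 and 44.4 RpM.

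Summed by list, markers of other cell types were far lower. Most of the macrophage sum was miR-21a-5p, which the study also describes as acting in endothelial and smooth muscle cells. Apart from it, miR-142a-5p alone, at 37030.5 and 29252.1 RpM, was above the sum of every list of another cell type. Single markers overlapped, since miR-143-3p was above the macrophage marker miR-155-5p in both libraries, and miR-200b-3p was above it in replicate 2. The 4 fibroblast and mesenchymal markers summed to 232 and 153 RpM, led by miR-143-3p at 187 and 117 RpM, and all 4 were counted in both libraries. The 5 epithelial markers summed to 152 and 165 RpM, led by miR-200b-3p at 67.7 and 102 RpM, with miR-205-5p at 1 and 0 counts. The lymphoid miR-150-5p stood at 27.6 and 10.9 RpM and the endothelial miR-126a-3p at 14.1 and 10.9 RpM. The 2 erythroid markers summed to 1.23 and 0.988 RpM, led by miR-451a at 0.956 and 0.988 RpM. Of the 2 neural markers miR-9-5p had 1.64 and 1.36 RpM, and miR-124-3p had 0 counts in both libraries. Liver miR-122-5p and the muscle miRNAs miR-1a-3p and miR-206-3p also had 0 counts in both, and the third muscle marker, miR-133a-3p, had 0 and 0.741 RpM. A count of 0 allows up to 3 counts, which is 0.410 RpM in replicate 1 and 0.371 RpM in replicate 2. In such bulk libraries fewer cells of a type and less RNA per cell cannot be told apart.

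Together the 9 miRNAs held 14713 RpM in replicate 1 and 13811 RpM in replicate 2, or 1.43% ± 0.0638 of all counts (SD, n = 2). Each read covers a whole mature miRNA, so levels were compared between miRNAs without a length correction. They are shares of reads and not of molecules, since adapter ligation and PCR favour some sequences. Intervals and limits at 0 counts cover counting error only, because PCR copies were not marked by molecular identifiers and reads are not independent.

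miR-92a-3p, the last miRNA of its precursor, was the most abundant of the 9. Its level was 6442 RpM in replicate 1 and 6008 RpM in replicate 2, a mean of 6225 ± 307 (SD, n = 2) at rank 21 of all names. miR-21a-5p was 43.4 and 42.8 times as abundant. The names nearest to miR-92a-3p in log2 mean level over the 2 libraries were miR-221-3p at 5992 ± 842 RpM and miR-340-5p at 6627 ± 326 RpM. The replicates of miR-221-3p, at 6587 and 5396 RpM, enclosed both values of miR-92a-3p, so these levels did not differ beyond their spread.

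miR-25-3p, which shares the miR-92 seed, followed with 3261 and 3309 RpM (3285 ± 33.6, n = 2, rank 39). Its nearest names were miR-30c-5p at 3240 ± 146 RpM and miR-484 at 3393 ± 6.54 RpM. miR-93-5p, the most abundant carrier of the miR-17 seed, had 2013 and 2053 RpM (2033 ± 28.5, rank 49). These 2 Mcm7 members kept a nearly fixed ratio, 1.62 in replicate 1 and 1.61 in replicate 2.

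The other Mir17hg members were lower. miR-19b-3p had 1037 and 900.3 RpM (968.8 ± 96.9, n = 2, rank 65). miR-17-5p, which names the cluster, had 613 and 484 RpM (548 ± 91.5, rank 81). miR-20a-5p had 475 and 353 RpM (414 ± 86.6, rank 90). Each of these 3 was lower in replicate 2, and its values lay below both values of the next higher member.

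miR-106b-5p of the Mcm7 cluster had 440.4 and 385 RpM (413 ± 39.2, n = 2, rank 91), inside the range of miR-20a-5p. miR-19a-3p had 227 and 203 RpM (215 ± 16.7, rank 116). miR-18a-5p was the lowest member by its mean, at 204 and 116 RpM (160.1 ± 62.1, rank 129). Its value in replicate 1 reached that of miR-19a-3p in replicate 2.

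**Figure D1:**
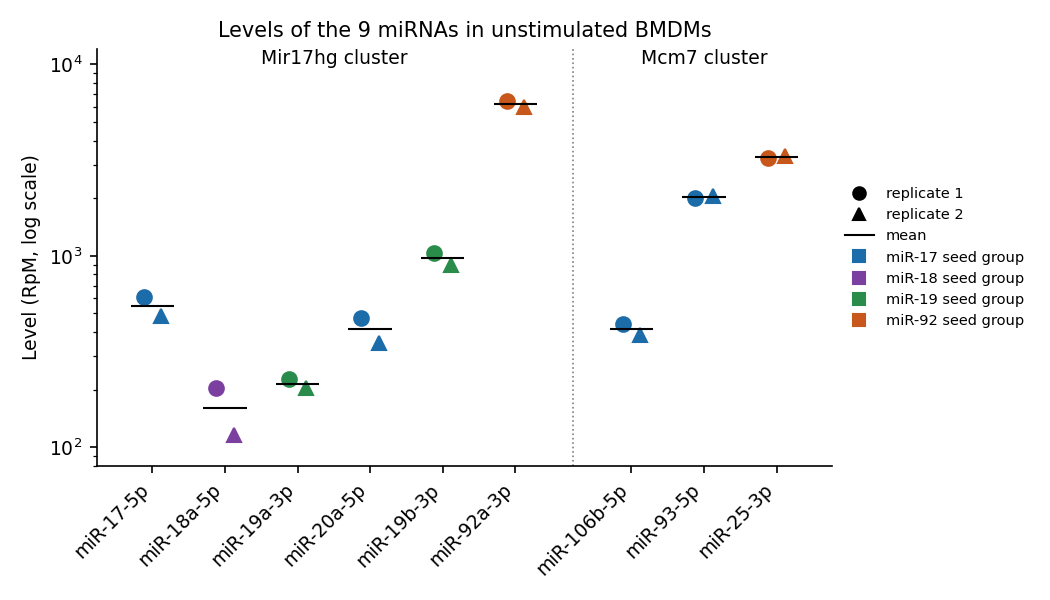
Level of each of the 9 miRNAs in RpM on a log axis, with a circle for replicate 1, a triangle for replicate 2 and a line at their mean. Colours mark seed groups, and the levels run from 116 RpM for miR-18a-5p in replicate 2 to 6442 RpM for miR-92a-3p in replicate 1.

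For each library, the counts of neighbouring members in the order were compared by an exact binomial test, two-sided, with Benjamini-Hochberg adjustment over 16 tests and a threshold of 0.05. This covers counting error within a library only, and a two-sided sign-flip permutation over 2 libraries cannot go below p = 0.5. The pairs and their order were set by the means of these same counts, which favours passes in that order. In the order of the means, 15 of 16 tests passed, and 7 of 8 neighbouring pairs passed in every library. The exception was miR-20a-5p with miR-106b-5p, whose order turned. miR-20a-5p had 3480 counts against 3225 in replicate 1 (exact adjusted p = 0.00205), while miR-106b-5p had 3116 against 2855 in replicate 2 (exact adjusted p = 0.000874). Over all 36 pairs of members, 35 had the same order in both libraries. The levels of 6 of the 8 neighbouring pairs did not overlap between libraries, and the pairs that did were miR-20a-5p with miR-106b-5p and miR-19a-3p with miR-18a-5p.

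The miRNAs listed under the Mir17hg cluster differed in level, most of all through miR-92a-3p, which may include reads of the X-linked locus. miR-92a-3p made up 71.6% of the Mir17hg members in replicate 1 and 74.5% in replicate 2 (73.0% ± 2.06, n = 2). miR-19b-3p followed with 11.3% ± 0.257, miR-17-5p with 6.41% ± 0.576 and miR-20a-5p with 4.83% ± 0.641. miR-19a-3p held 2.52% in each library and miR-18a-5p 1.85% ± 0.584. From the highest to the lowest member the ratio was 31.6 in replicate 1 and 51.7 in replicate 2, a difference that came with the lower level of miR-18a-5p in replicate 2.

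In the Mcm7 cluster miR-25-3p made up 57.3% ± 0.357 of its members, miR-93-5p 35.5% ± 0.356 and miR-106b-5p 7.20% ± 0.713 (n = 2). The ratio of miR-25-3p to miR-106b-5p was 7.40 and 8.59. In both libraries this ratio was below that of miR-92a-3p to miR-18a-5p. Among the 4 Mir17hg members that the X-linked cluster does not encode, the extremes were miR-17-5p and miR-18a-5p, with a ratio of 3.01 and 4.16. This was below that of the Mcm7 cluster, so the order of the clusters turns without the shared miRNAs. The Mcm7 ratio still included miR-25-3p, of the miR-92 seed.

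Summed over members, the Mir17hg cluster had 8999 and 8064 RpM and the Mcm7 cluster 5714 and 5747 RpM. The ratio of the sums was 1.57 in replicate 1 and 1.40 in replicate 2 (1.49 ± 0.121, n = 2), above 1 in both. It rested on miR-19b-3p and miR-92a-3p, which the X-linked cluster also encodes. Without them the ratio was 0.266 and 0.201, and with the median member in place of the sum it was 0.270 and 0.204. The ratio without them is lopsided, because miR-25-3p stayed in the Mcm7 sum. It shares the miR-92 seed and made up 57.3% of that sum. By the median member the Mcm7 cluster was therefore the more abundant in both libraries.

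Grouped by seed, the miR-92 group was the most abundant, with 9703 RpM in replicate 1 and 9316 RpM in replicate 2 (9510 ± 273, n = 2). miR-92a-3p supplied 66.4% and 64.5% of it, and was 1.98 and 1.82 times as abundant as miR-25-3p. miR-92a-3p thus gave the larger part of this group, of which no share can be credited to its Mir17hg or its X-linked locus.

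The miR-17 group came next, with 3541 and 3274 RpM (3408 ± 189, n = 2). Here the Mcm7 members supplied 69.3% and 74.5%, so the larger part came from that cluster. miR-93-5p was 3.28 and 4.24 times as abundant as miR-17-5p, and 4.57 and 5.33 times as abundant as miR-106b-5p of its own cluster. miR-17-5p exceeded miR-20a-5p by 1.29 and 1.37 times.

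The miR-19 group had 1264 and 1104 RpM (1184 ± 114, n = 2). Although U11C is the only substitution between its members, miR-19b-3p was 4.57 and 4.43 times as abundant as miR-19a-3p (4.50 ± 0.101). The second locus of miR-19b-3p and the possible exchange of reads bear on this ratio, and their part in it was not tested. The miR-18 group consisted of miR-18a-5p.

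**Figure D2:**
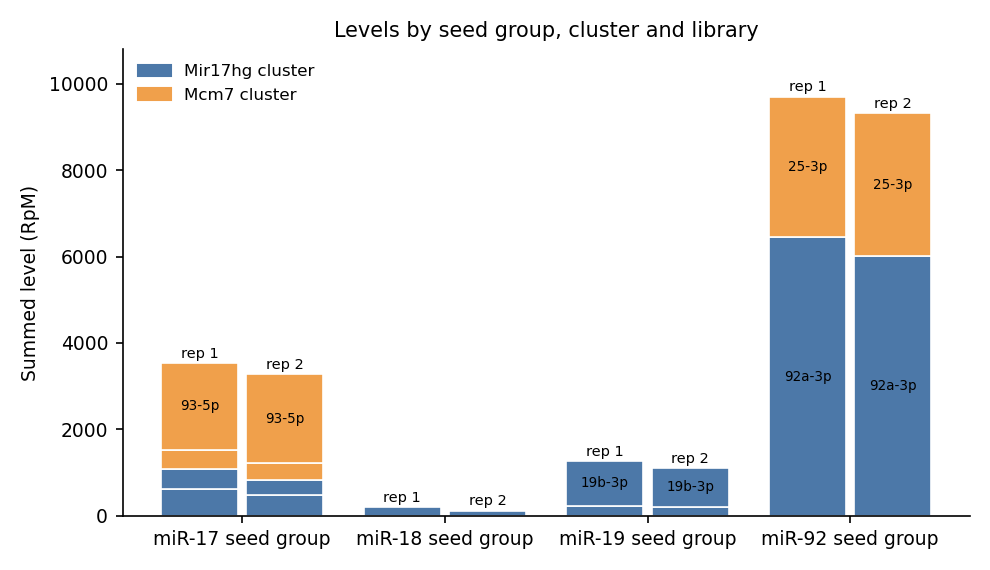
Summed level in RpM of each seed group in replicates 1 and 2, from 0, with each block 1 member and its colour the cluster it is listed under. In both libraries miR-92a-3p, which the X-linked cluster also encodes, gave most of the miR-92 group, and the Mcm7 cluster gave most of the miR-17 group.

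Other miRNA names with these seeds were rare. miR-32-5p had 228 counts in replicate 1 and 248 in replicate 2, and miR-92b-3p had 153 and 319. miR-92a-3p exceeded miR-92b-3p, from which it differs by U10C and G21C over their shared length, by 308 and 152 times. miR-367-3p and miR-6383 had 0 counts in both libraries. With these names added, no seed group level moved by more than its SD over the 2 libraries.

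The X-linked cluster had few counts. Its paralogs of the members with a mature sequence of their own, the 4 arms miR-106a-5p, miR-18b-5p, miR-20b-5p and miR-363-3p, summed to 72 counts in replicate 1 and 29 in replicate 2, or 9.83 and 3.58 RpM. miR-106a-5p, 1 substitution from miR-17-5p (U10A), had 13 and 2 counts. Of the arms opposite these 4, miR-363-5p had 2 and 0 counts, miR-18b-3p 1 and 0, and miR-106a-3p and miR-20b-3p 0 in both libraries. miR-17-5p was 345 times as abundant as miR-106a-5p in replicate 1 (exact 95% interval 202 to 649) and 1958 times in replicate 2 (542 to 16174). The intervals show that the small counts leave the size of this ratio poorly known.

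The other paralogs were also apart, by ratios of different size that ran from 136 to 2702. miR-20a-5p was 249 times as abundant as miR-20b-5p in replicate 1 (exact 95% interval 148 to 455) and 714 times in replicate 2 (278 to 2621). For miR-18a-5p and miR-18b-5p, with A18U and A20U between them, the ratio was 136 (75.7 to 273) and 188 (80.4 to 581). miR-92a-3p was 1388 (993 to 2004) and 2702 (1709 to 4559) times as abundant as miR-363-3p. In all 4 pairs the arm of the X-linked cluster was the lower in both libraries.

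The 5p arms of miR-92a and miR-19b have sequences of their own at each locus. miR-92a-1-5p, from the Mir17hg locus, had 537 counts in replicate 1 and 349 in replicate 2, while miR-92a-2-5p, from the X-linked locus, had 0 in both. Against a limit of 3 counts per library this was 179-fold and 116-fold higher, without the counting error of the 537 and 349 counts. miR-19b-1-5p had 15 and 6 counts and miR-19b-2-5p 0 and 0. Against the same limit this is 5-fold and 2-fold higher, without the counting error of the 15 and 6 counts. For miR-19b this depth allows only a small difference between loci to be shown. These values concern the 5p arms and do not assign the 3p counts.

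Each hairpin yields a pair of arms, and since the members were named as dominant arms, that they exceeded their partners is no finding. How far they did varied. The share of the named arm in the counts of its hairpins had a median of 98.7% over the 9 miRNAs, with the highest at 99.9% ± 0.0812 for miR-19b-3p (n = 2). The lowest was miR-106b-5p, with 76.1% in replicate 1 (95% Wilson interval 74.8 to 77.4) and 72.3% in replicate 2 (71.0 to 73.6). Its partner miR-106b-3p had 1012 and 1193 counts. miR-18a-5p at 87.0% ± 0.319 and miR-17-5p at 89.1% ± 0.896 were the next lowest.

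**Figure D3:**
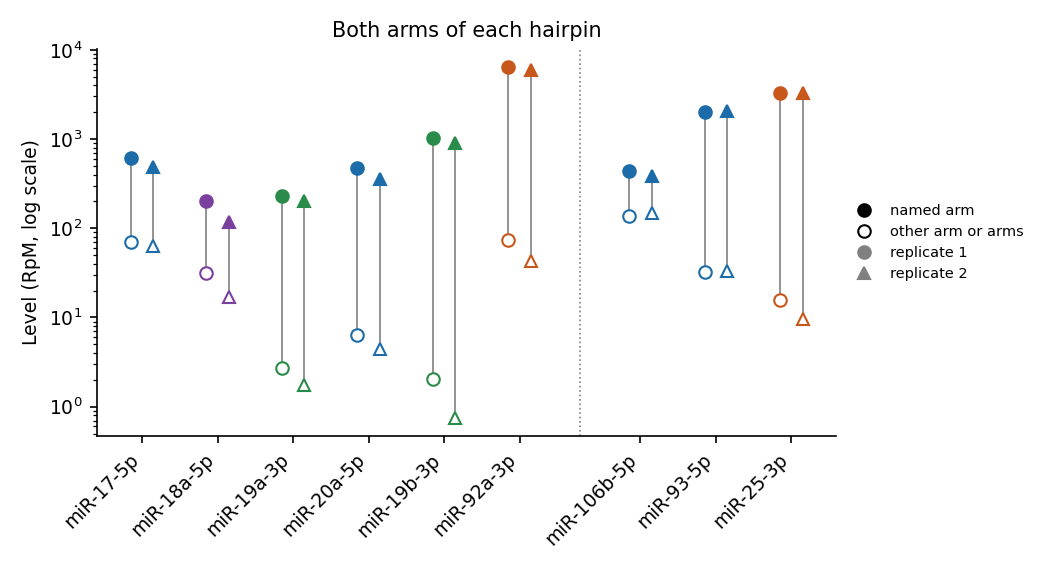
Level in RpM on a log axis of the named arm (filled) and of the other arm or arms of the same hairpins (open), with circles for replicate 1 and triangles for replicate 2. The gap is narrowest for miR-106b-5p and widest for miR-19b-3p.

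The 2 libraries were compared by Fisher's exact test per name, each count against the rest of the library total, with Benjamini-Hochberg adjustment over the 588 names with at least 10 counts summed and a threshold of 0.05. Such a test compares libraries and not conditions, and covers counting error only. The log2 ratios are of replicate 2 over replicate 1.

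By library totals 7 of the 9 miRNAs passed, 0 higher and 7 lower in replicate 2. Among all names 44.2% passed, 13.8% higher and 30.4% lower. Since deep counts pass more easily, the share among the 170 names with at least 1000 counts summed, a background chosen after seeing the data, was 82.4%. The members' 7 of 9 was near that share, so their count is not a result about the clusters.

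Which members passed, and the direction of miR-92a-3p, depended on the scaling. TMM and DESeq2 size factors, which are meant to set libraries to a common level over many names, shifted all log2 ratios by 0.12 and 0.14. The DESeq2 size factor was 1 for both libraries, so that setting compared the raw counts without scaling for depth. The median over all tested names was -0.16 by totals, -0.04 by TMM and -0.02 by DESeq2, beside -0.19, -0.07 and -0.05 for the 9 miRNAs. Over the 170 names with at least 1000 counts, to which all 9 belong, it was -0.04, 0.08 and 0.10, so the median of the 9 lay lower than that of these names, by a gap that scaling leaves as it is. With TMM 6 members passed, 2 higher and 4 lower, against 43.7% of all names, 20.2% higher and 23.5% lower. With DESeq2 size factors 7 passed, 3 higher and 4 lower, against 42.7%, 21.1% higher and 21.6% lower.

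miR-18a-5p had the lowest ratio of the 9, with 1494 counts in replicate 1 and 941 in replicate 2. Its log2 ratio was -0.81 by totals (Fisher's exact test, adjusted p = 1.1e-41), -0.69 by TMM and -0.67 by DESeq2, the 7th lowest by totals of the 170 names with at least 1000 counts. miR-20a-5p stood at -0.43 by totals (Fisher's exact test, adjusted p = 2.57e-31) and -0.31 by TMM, and miR-17-5p at -0.34 (adjusted p = 1.72e-26) and -0.22. miR-19b-3p stood at -0.20 by totals and -0.06 by DESeq2 (Fisher's exact test, adjusted p = 0.0284). These 4 members passed as lower under all 3 scalings, and all are listed under the Mir17hg cluster. The DESeq2 setting left the raw counts unscaled, so it adds no further normalization. Among all tested names 30.4% passed as lower by totals, 23.5% by TMM and 21.6% by DESeq2. The share of names that did so under all 3 was not counted, so the 4 members are not a result about the cluster.

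miR-92a-3p was lower by totals (-0.10) and its ratio turned to 0.02 by TMM, where it did not pass (Fisher's exact test, adjusted p = 0.0585), and to 0.04 by DESeq2, where it passed as higher. miR-25-3p and miR-93-5p did not pass by totals, at 0.02 and 0.03, and passed as higher by TMM, at 0.14 and 0.15. miR-106b-5p and miR-19a-3p passed as lower by totals alone. By totals 6 of 6 Mir17hg members and 1 of 3 Mcm7 members were lower in replicate 2, beside 96 of the 170 names with at least 1000 counts (56.5%), but miR-92a-3p turned under the other scalings, and the difference between the clusters was not tested. In the same test by totals, 6 of the 7 macrophage and myeloid markers passed as lower in replicate 2 and miR-146a-5p as higher, while miR-21a-5p did not pass by TMM and passed as higher by DESeq2. Of the 4 fibroblast and mesenchymal markers, miR-143-3p and miR-214-3p passed as lower under all 3 scalings, as did the lymphoid miR-150-5p. Of the epithelial markers, miR-200b-3p passed as higher and miR-141-3p as lower under all 3 scalings, and miR-200c-3p as lower by totals alone. No erythroid, endothelial or neural marker passed under any of these scalings, and no muscle or liver marker had the 10 counts needed for the test. The part of these cell types in the ratios of the 9 miRNAs was not tested.

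**Figure D4:**
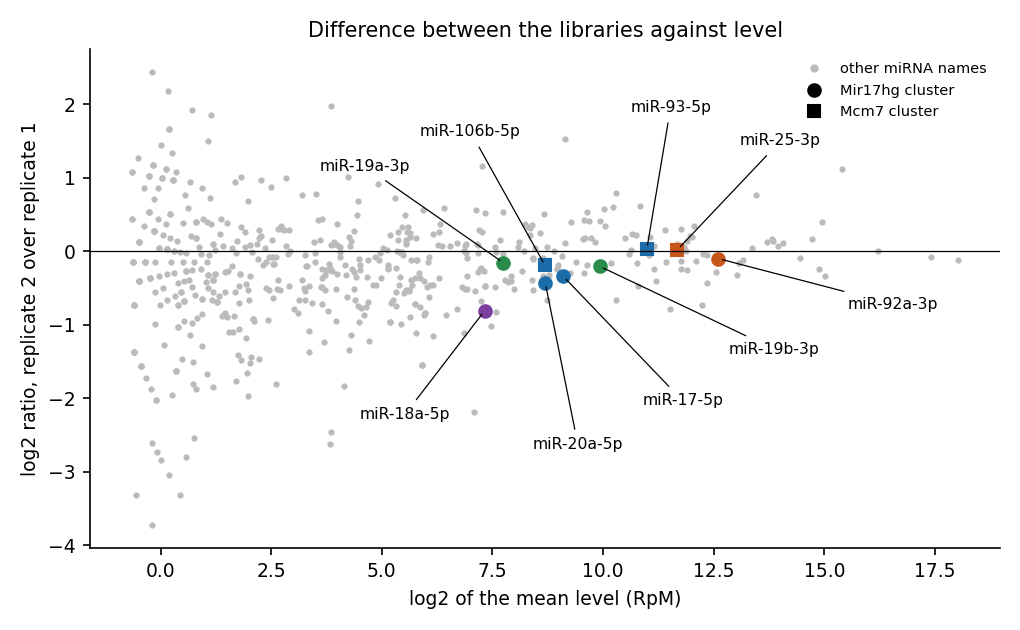
Log2 ratio of replicate 2 over replicate 1 by library totals against the log2 of the mean level in RpM, for the 9 miRNAs (large marks, circles for Mir17hg and squares for Mcm7) and 579 other names (small grey dots). miR-18a-5p is the lowest of the 9, at -0.81, and the sign of miR-92a-3p turns under TMM and DESeq2 scaling.

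By library totals, 0 of the 9 miRNAs and 7 of the 170 names with at least 1000 counts (4.12%) differed by more than 2-fold. The size of the log2 ratio, without its sign, had a median of 0.24 over the 170 names and 0.19 over the 9 miRNAs, so that of miR-18a-5p was large beside both. The biological coefficient of variation, the relative spread between replicates beyond counting error estimated by edgeR, was 0.240 over the 448 names with at least 10 counts in every library. The coefficient of variation of the 9 miRNAs had a median of 9.50%, from 1.02% for miR-25-3p to 38.8% for miR-18a-5p. Over the 170 names its median was 11.9%.

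The other arms did not all follow their partners. miR-18a-3p, at 228 and 138 counts, had a log2 ratio of -0.87 by totals and -0.75 by TMM, close to that of miR-18a-5p. miR-92a-1-5p, at 537 and 349 counts, had -0.77 by totals and -0.64 by TMM, beside -0.10 and 0.02 for miR-92a-3p. miR-25-5p, at 115 and 77 counts, had -0.72 by totals and -0.60 by TMM, beside 0.02 and 0.14 for miR-25-3p. Over the 9 miRNAs the minor arm had the lower ratio for 6 and the higher ratio for 3. The latter were miR-93, with 0.05 for miR-93-3p beside 0.03 for miR-93-5p by totals, miR-106b, with 0.09 for miR-106b-3p beside -0.19 for miR-106b-5p, and miR-17, with -0.15 for miR-17-3p beside -0.34 for miR-17-5p. These orders are the same under TMM, which shifts both arms alike, and the differences between arms were not tested. Minor arms with the lower ratio include some with few counts, at 15 and 6 for miR-19b-1-5p, 20 and 14 for miR-19a-5p and 47 and 36 for miR-20a-3p. How often minor arms had the lower ratio over the whole table was not counted, so the tally is not a result about the members.

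The 9 sequences are 21 to 23 bases long, with a GC content from 34.8% in miR-19a-3p to 57.1% in miR-92a-3p. Across the 9 miRNAs GC content and log2 mean level had a Pearson correlation of 0.805. The members share libraries and, within a seed group, most of their bases, so this is a description. Over the 150 names with at least 1000 counts summed and a sequence, a comparison chosen after seeing the data, it was -0.17.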

How the data were processed

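Small RNA of unstimulated WT BMDMs was analysed in 2 libraries of a single condition. The authors trimmed the reads, mapped them to the mouse stem-loops of miRBase with Bowtie 0.12.7 and deposited raw counts per mature miRNA name. The miRBase release, the permitted mismatches and the treatment of reads that match several stem-loops are not given in the sources used here, and the counts already include them. The submitters' processing notes also name DESeq2.

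Levels were computed as count over library total times 1000000, with the mean and SD of both libraries and Wilson or exact 95% intervals. A seed was read as bases 2 to 8. Tests used Python 3.11.15, SciPy 1.17.1 and statsmodels 0.14.6, and R 4.3.3 with edgeR 4.0.16 (TMM, common dispersion, intercept only) and DESeq2 1.42.0. Fisher's exact test was tried on counts simulated with counting error only. It called 69.7% of names changed 2-fold, and 0 of 572 names where none was changed. That simulation held no spread between replicates, so it cannot show how the test behaves on these libraries. The biological coefficient of variation was also estimated on simulated counts, and the binomial test was not simulated. With a single condition no quasi-likelihood test was made.

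Named miRNAs were the 9 members, their other arms, the X-linked cluster, names with the same seed, the 2 names nearest in level to the top member of each cluster, miR-21a-5p and marker miRNAs. Members and lists were chosen with earlier results of these data known. Alternatives were pooled reads, each library alone, TMM and DESeq2 scaling, totals without miR-21a-5p, other count minimums, both arms summed, the median member, the cluster ratio without miR-19b-3p and miR-92a-3p, and all names of a seed. Chosen after seeing the data were the coefficient of variation without miR-21a-5p, the background of names with at least 1000 counts, and each member's log2 ratio under each scaling.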

Additional observations from a re-analysis of the deposited data

How the results depend on the processing

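The ratio of the Mir17hg to the Mcm7 cluster turned from 1.49 to 0.234 without miR-19b-3p and miR-92a-3p and to 0.237 with the median member. This follows by construction, since those 2 miRNAs hold most of the sum. The value of 0.234 still counted miR-25-3p in the Mcm7 cluster. The full ratio stayed above 1 with pooled reads, in each library alone (1.40 to 1.57) and with both arms summed (1.47). Totals without miR-21a-5p are smaller by construction and raised the sum of the 9 miRNAs to 19509 RpM, the miR-17 group to 4662, the miR-19 group to 1620.4 and the miR-92 group to 13006. Of 63 values of single miRNAs under alternatives, 55 stayed within 1 SD and 8 moved, all 8 with those totals. The log2 ratio of miR-92a-3p turned to 0.0207 by TMM and 0.0438 by DESeq2, read after seeing the data, by construction, since scaling shifts all ratios alike. The biological coefficient of variation was 0.254 without TMM and 0.253 over names with at least 1 count, and the cause was not tested. Leaving out miR-21a-5p, chosen after seeing the data, left it at 0.240. The X-linked level of 6.71 RpM was 3.58 without replicate 1, 9.83 without replicate 2 and 3.43 over names with at least 10 counts in every library, which keep miR-363-3p alone of the 4 arms. With 2 libraries, neither leaving 1 out nor pooling reads can move a mean by more than 1 SD. These settings therefore say little about stability, and their values are among the 55 by construction. The order passed for 7 of 8 pairs in replicate 2 alone and 8 of 8 in replicate 1 alone. Members passing between libraries numbered 6 or 7 under all alternatives. No paired analysis was possible because both libraries form a single group. Depth limits what can be said of the X-linked arms.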

Other observations

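In replicate 2 the minor arm miR-106b-3p, at 147 RpM (95% Wilson interval 139 to 156), was above the dominant arm miR-18a-5p, at 116 RpM, while in replicate 1 it was below, at 138 against 204 RpM. The 4 X-linked paralogs of the members with a sequence of their own each had fewer counts in replicate 2, despite its larger total, and their log2 ratios were below 0 by totals and by TMM. miR-363-3p had 34 and 18, miR-20b-5p 14 and 4, miR-106a-5p 13 and 2, and miR-18b-5p 11 and 5. By Fisher's exact test on library totals miR-106a-5p (adjusted p = 0.00798), miR-363-3p (adjusted p = 0.0284) and miR-20b-5p (adjusted p = 0.0363) passed and miR-18b-5p (adjusted p = 0.237) did not, beside 30.4% of all tested names that passed as lower. miR-92b-3p, with the miR-92 seed, went the other way, with 153 and 319 counts and a log2 ratio of 0.92 (Fisher's exact test, adjusted p = 1.52e-10).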
